A study of Mus musculus with 6 samples.

Results

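Ubiquitin conjugation, ligase and deubiquitinase genes were examined in 2 mouse ovarian cancer lines, ID8 and KMF, grown as tumorspheres. Members were chosen by gene symbol alone: the families of the ubiquitin-activating (Uba), conjugating (Ube2) and HECT or U-box enzymes, the Rnf and related RING ligases, the cullins, the F-box, Klhl, Kctd, Dcaf and Asb substrate adaptors, and the Usp, Otu and Uch deubiquitinases. Of the 7320 genes in the deposited table, 151 matched, the rule left out 2, and 149 were members, all of them protein coding. ID8 cells derive from transformed mouse ovarian epithelial cells of the C57Bl6 strain, and KMF (ID8-IP in the sample titles) was recovered from ID8 cells passaged in mice. There were 3 libraries per line, made from untreated spheres kept for 5 days in serum-free medium, at passages 23, 24 and 35 (ID8, replicates 1 to 3) or 14, 17 and 22 (KMF, replicates 1 to 3). Each line is a single line, so the p-values measure the spread between RNA samples of that line and not between independently derived lines or tumors.

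Ubiquitin is attached to proteins in a relay. An E1 enzyme activates it, an E2 enzyme carries it, and an E3 ligase chooses the substrate, either alone (RING and HECT ligases) or as a cullin scaffold that holds an exchangeable adaptor such as an F-box or Kelch-like protein. Deubiquitinases cut the chains again, and the balance sets which proteins the proteasome destroys, among them cyclins, p53, Myc and beta-catenin.

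The table holds only genes that the authors had already called different between the lines with DESeq2, so nearly every listed gene differs and the informative quantities are direction, size and level. In the edgeR quasi-likelihood test used here, 92.9% of all fitted genes had an adjusted p-value under 0.05 (termed called), and 45.4% were called higher and 47.5% lower in KMF. Among the members, 147 could be fitted and 140 were called, of which 62 were higher and 78 lower. A change of at least 2-fold was called in 48 members, 20 higher and 28 lower, against 40.5% of all fitted genes (18.0% higher, 22.5% lower). With limma on log2(FPKM + 1), which understates the change of low genes, 14 members were called lower by at least 2-fold. Of the 48, 45 kept an adjusted p under 0.05, whatever their fold, under every alternative processing that gave a value, the exceptions being Rnf130, Klhl13 and Asb10. The median log2 fold change (KMF over ID8) of the members was -0.31, and that of all fitted genes was -0.23. Member changes were mostly moderate: the median absolute log2 fold change was 0.57, against 0.79 over all fitted genes. In 145 of the 147 fitted members the 3 ID8 and the 3 KMF libraries did not overlap in CPM (counts scaled to library size), and over all fitted genes this held for 96.6%. Libraries held 23108407 to 33212313 fragments on genes, and members took 1.13% to 1.25% of them. In such bulk samples, fewer cells of a kind and less RNA per cell cannot be told apart.

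The members were counted by their step in the relay (the plot of fold changes by class). Of 19 E2 enzymes, 12 were called higher and 7 lower. Under upper quartile scaling, by which the median of all genes dropped by 0.11, 7 E2 enzymes were called higher. The RING and the HECT or U-box ligases together were evenly split, with 19 higher and 19 lower of 40. The substrate adaptor classes of cullin ligases (the Kctd proteins only in part) were mostly lower, with 33 lower and 16 higher of 52. Among them the Kelch-like proteins stood at 14 lower and 1 higher of 16. The F-box proteins had 11 lower and 8 higher of 19, and the Kctd proteins 3 lower and 5 higher of 9. The Dcaf proteins had 3 lower and 1 higher of 4, and the Asb proteins 2 lower and 1 higher of 4. The cullins themselves had 4 lower and none higher of 5, with Cul2 not called. Deubiquitinases had 13 higher and 14 lower of 30. These are counts beside the 45.4% and 47.5% of all genes given above, without a test of any class. In 4 members a line was at or under 3 counts in every library, and 2 of them (Rnf144a and Asb4) were not fitted. With the 4 put at their bound, the RING median went from 0.25 to -0.02 and the Asb median from -1.45 to -1.47, and no other class median moved.

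**Figure D1:**
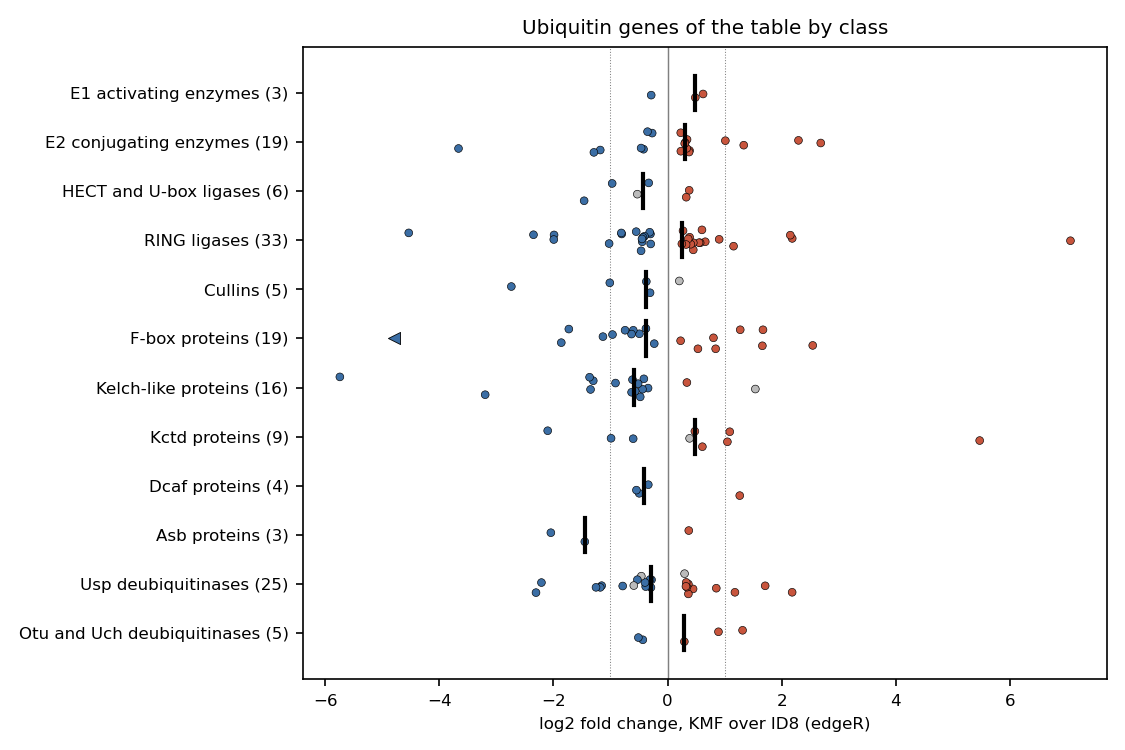
Log2 fold change (KMF over ID8, edgeR) of the 147 fitted members on the horizontal axis by class on the vertical axis, with the number fitted in brackets. Red points were called higher in KMF, blue lower, grey not called, black bars are class medians, dotted lines mark 2-fold, and the triangle shows Fbxo17 at its bound. The Kelch-like proteins lie almost entirely below 0, with a median of -0.59, and the E2 enzymes have a median of 0.30. The RING median of 0.25 was -0.06 with DESeq2.

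The promoters of Ube2c, Ube2t, Ube2s and Fbxo5 are printed, which are 4 of the 5 cell cycle members that rose by over 2-fold. They were picked by hand, and that of Rnf144b, the other such member, is not printed. Sequences are the RefSeq promoters of GRCm38.p6, from 250 bases before to 50 bases after the start site, read 5′ to 3′ on the gene's strand, and were chosen with the results known. Capitals mark CCAAT (or ATTGG, the same motif on the other strand) and TTTGAA (or TTCAAA), elements known from cell cycle promoters. The Ube2c promoter lies at chr2:164769679-164769978 (plus strand), that of Ube2t at chr1:134962315-134962614 (plus), that of Ube2s at chr7:4812291-4812590 (minus) and that of Fbxo5 at chr10:5805416-5805715 (minus).
Ube2c: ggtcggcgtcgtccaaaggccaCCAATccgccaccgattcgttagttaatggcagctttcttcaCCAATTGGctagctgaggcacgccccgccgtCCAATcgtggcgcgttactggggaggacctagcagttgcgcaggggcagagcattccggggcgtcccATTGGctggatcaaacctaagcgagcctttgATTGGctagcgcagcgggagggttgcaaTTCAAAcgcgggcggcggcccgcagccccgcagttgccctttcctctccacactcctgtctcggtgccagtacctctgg
Ube2t: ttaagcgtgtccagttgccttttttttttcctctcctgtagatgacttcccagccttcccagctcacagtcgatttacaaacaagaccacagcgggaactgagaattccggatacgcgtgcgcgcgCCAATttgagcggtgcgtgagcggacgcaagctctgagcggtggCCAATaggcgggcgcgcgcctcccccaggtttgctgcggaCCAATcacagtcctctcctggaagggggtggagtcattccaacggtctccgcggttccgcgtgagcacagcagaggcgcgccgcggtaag
Ube2s: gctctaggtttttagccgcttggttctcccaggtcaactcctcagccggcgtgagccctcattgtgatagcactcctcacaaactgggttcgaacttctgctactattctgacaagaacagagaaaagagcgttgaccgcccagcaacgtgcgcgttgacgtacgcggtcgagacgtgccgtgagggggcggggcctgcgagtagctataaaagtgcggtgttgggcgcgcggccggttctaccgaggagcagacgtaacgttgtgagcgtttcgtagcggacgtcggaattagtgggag
Fbxo5: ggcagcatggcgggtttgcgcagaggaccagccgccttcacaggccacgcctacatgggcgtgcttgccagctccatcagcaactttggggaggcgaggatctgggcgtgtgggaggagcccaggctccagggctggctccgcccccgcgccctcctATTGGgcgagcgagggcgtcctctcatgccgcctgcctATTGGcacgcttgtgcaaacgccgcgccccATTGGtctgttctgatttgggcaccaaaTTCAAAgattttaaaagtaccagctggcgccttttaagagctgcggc
In the Ube2c promoter CCAAT was found 6 times, a pair of which overlap, and TTTGAA once, at -29 from the start site. The Ube2t promoter held CCAAT 3 times and no TTTGAA. That of Fbxo5 held CCAAT 3 times and TTTGAA once, at 4. In the Ube2s window neither was found. Of all 32851 RefSeq promoters of this length, 37.4% held CCAAT, 17.9% TTTGAA and 6.95% both. Of the 173 promoters matched to 123 members, 27.7% held CCAAT, 12.7% TTTGAA and 6.94% both. A match describes letters only.

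At the E1 step, Uba1, which activates most ubiquitin of the cell, was among the most abundant members. Its level was 133, 121 and 131 FPKM (fragments scaled to gene length and to library size) in ID8 replicates 1 to 3 and 111, 93.98 and 102 in KMF replicates 1 to 3. The lines did not overlap, and the difference was small, with a log2 fold change (± SE) of -0.29 ± 0.08 and an edgeR adjusted p of 0.0294, a call that was lost without ID8 replicate 1, without ID8 replicate 3, without KMF replicate 2 and without KMF replicate 3. Uba2, the catalytic subunit of the SUMO E1, was higher in KMF. It had 38.3, 39.6 and 36.1 FPKM in ID8 and 53.2, 50.3 and 52.1 in KMF, a log2 fold change of 0.49 ± 0.07 (adjusted p = 0.0013).

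Among the E2 enzymes the largest rise was in Ube2c, which starts ubiquitin chains on mitotic cyclins for APC/C. Ube2c stood at 16.4, 18.4 and 12.7 FPKM in the ID8 libraries and 94.4, 90.6 and 112 in the KMF libraries, so every KMF library was several times above every ID8 library. The log2 fold change was 2.69 ± 0.16 (adjusted p = 2.2e-05), a fold of 6.43. Ube2t, the E2 of the Fanconi anemia pathway for crosslinked DNA, was scarce in ID8, at 1.66, 1.98 and 1.32 FPKM, and rose to 7.32, 7.20 and 9.20 in KMF, a log2 fold change of 2.29 ± 0.19 (adjusted p = 7.77e-05). Ube2s, which lengthens the chains that Ube2c begins, was already abundant in ID8 at 81.1, 90.4 and 73.5 FPKM and reached 154, 154 and 173 in KMF. Its log2 fold change was 1.01 ± 0.10 (adjusted p = 0.00018). ID8 replicate 3 had the lowest ID8 level of all 3 of these E2 genes.

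Ube2r2 (a Cdc34-type E2 that works with SCF, the cullin 1 ligases) was the other E2 with a 2-fold rise. It had 48.8, 49.7 and 52.8 FPKM in ID8 and 135, 122 and 115 in KMF, a log2 fold change of 1.34 ± 0.09 (adjusted p = 3.22e-05). Levels of the 8 remaining higher E2 genes differed little, with log2 fold changes between 0.23 (Ube2d3 and Ube2j2) and 0.39 (Ube2m, the NEDD8 E2 that arms cullins). Ube2d3, a general-purpose E2, was at 101, 100.1 and 99.7 FPKM in ID8 and 118, 111 and 116 in KMF (log2 fold change 0.23 ± 0.06, adjusted p = 0.0219), and this call was lost in 7 of 14 alternatives. The calls of Ube2j2 and Ube2v2 were lost in 12 and 11 of them.

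In the opposite direction, Ube2h, the E2 of the CTLH ligase, fell from 102, 109.7 and 98.6 FPKM in ID8 to 49.8, 40.1 and 43.4 in KMF, a log2 fold change of -1.18 ± 0.10 (adjusted p = 9.79e-05). Ube2l6 is the E2 of ISG15, an interferon-induced modifier. It had 22.5, 24.1 and 38.5 FPKM in ID8, highest in replicate 3, and 11.3, 11.6 and 10.98 in KMF, where the 3 libraries were close together (log2 fold change -1.29 ± 0.20, adjusted p = 0.00156). The third E2 lower by over 2-fold was Ube2u, at a mean of 0.678 ± 0.376 FPKM (SD, n = 3) in ID8 and 0.0498 ± 0.0559 in KMF. The other lower E2 genes, Ube2g1, Ube2b, Ube2z and Ube2o, had log2 fold changes from -0.27 to -0.46, and each lies on chromosome 11.

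**Figure D2:**
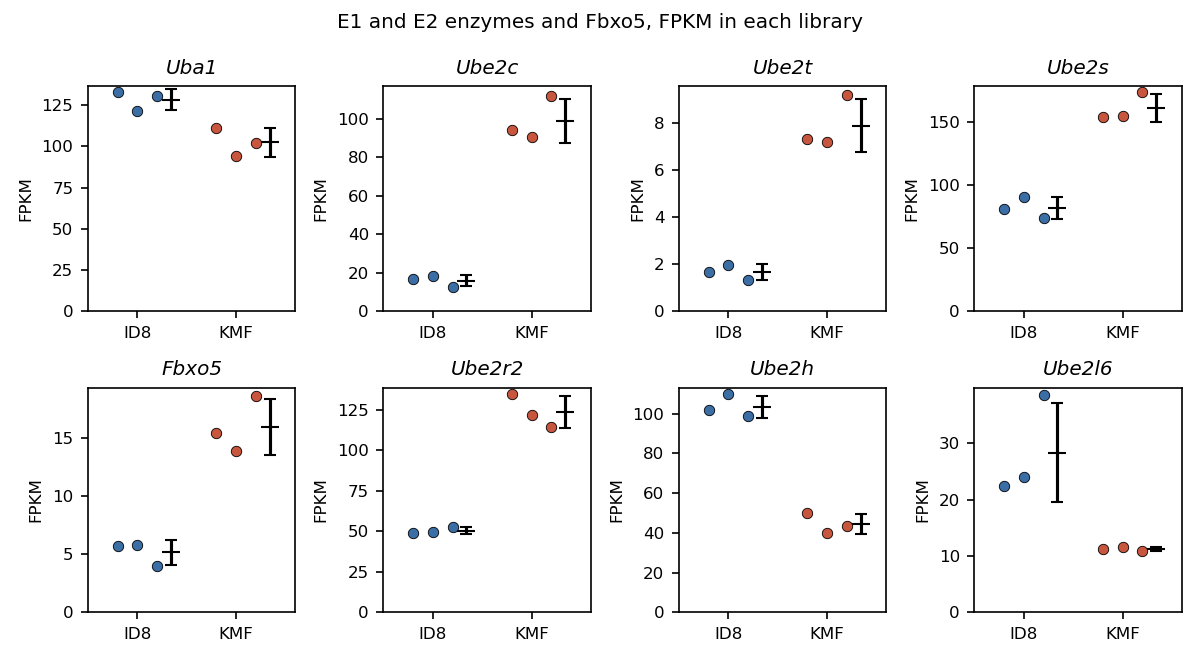
FPKM (vertical axis, from 0) in each ID8 (blue) and KMF (red) library for Uba1, 6 E2 enzymes and Fbxo5, with replicates 1 to 3 from left to right and the mean ± SD (n = 3) in black. No gene shows an overlap of the lines, and ID8 replicate 3 is the lowest ID8 library for Ube2c, Ube2t, Ube2s and Fbxo5.

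The HECT ligases, which take ubiquitin onto themselves before passing it on, were led in level by Nedd4, a ligase of membrane proteins and the most abundant member of all. Nedd4 had 339.8, 321 and 297 FPKM in ID8 and 253, 250.3 and 239 in KMF. The ranges were apart, with a log2 fold change of -0.33 ± 0.09 (adjusted p = 0.0179). The call was lost without ID8 replicate 1 (adjusted p = 0.0733), without KMF replicate 2 (0.0563) and without KMF replicate 3 (0.0761). Herc3 and Herc4, HECT ligases with RCC1-like domains, fell further. Herc3 went from 4.22, 3.79 and 4.13 to 1.59, 1.29 and 1.41 FPKM (-1.46 ± 0.13 on the log2 scale, adjusted p = 0.000126). Herc4 went from 25.4, 21.3 and 25.2 to 11.96, 11.7 and 12.04 FPKM (-0.97 ± 0.08, adjusted p = 9.65e-05). For the giant ligase Herc2 the log2 fold change was -0.53 ± 0.18 with an adjusted p of 0.0531, so it was not called. Ube3b was modestly higher, at 25.96, 25.7 and 27.1 FPKM in ID8 and 30.8, 35.1 and 33.9 in KMF (0.38 ± 0.07, adjusted p = 0.00422).

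RING ligases, the largest class, had 17 genes called higher (11 without ID8 replicate 1) and 16 lower of 34. Rnf183, a ligase of the endoplasmic reticulum membrane, was nearly absent from ID8, with 1, 4 and 0 counts in replicates 1 to 3, and had 171, 288 and 228 counts in KMF. In FPKM it was at 0.0237, 0.116 and 0 in ID8 and at 5.06, 8.70 and 4.79 in KMF. The ratio of pooled counts per fragment was 136 (95% exact interval 58.1 to 421, counting error only), and the fitted log2 fold change was 7.06 ± 0.61 (adjusted p = 0.000104). Rnf144b, an RBR-type ligase known as a p53 target, rose from 1.10, 1.13 and 0.519 FPKM in ID8, lowest in replicate 3, to 4.14, 3.84 and 3.97 in KMF (2.15 ± 0.28 on the log2 scale, adjusted p = 0.000673). Rnf26, a perinuclear membrane ligase that anchors endosomes, had 10.3, 10.3 and 8.31 FPKM in ID8 and an even 20.96, 20.8 and 21.03 in KMF (1.16 ± 0.11, adjusted p = 0.000131). Rnf130 remained low throughout, at 0.181, 0.221 and 0.104 FPKM in ID8 and 0.536, 1.30 and 0.461 in KMF (2.19 ± 0.55, adjusted p = 0.0159), and KMF replicate 2 stood well above the other two. Without ID8 replicate 1 its adjusted p was 0.0556. Rnf10, a ligase of ribosome quality control and one of the 5 most abundant members, rose from 81.6, 85.6 and 84.6 to 124, 128 and 121 FPKM (0.60 ± 0.07, adjusted p = 0.000361).

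Of the fitted RING ligases, the deepest fall was in Rnf125, which acts on the RNA sensor RIG-I. It had 2.95, 2.42 and 2.77 FPKM in ID8 and 0.0954, 0.0649 and 0.158 in KMF, a log2 fold change of -4.53 ± 0.35 (adjusted p = 6.68e-05). Rnf213, a very large ATPase and ligase induced by interferon, had 27.7, 16.02 and 14.8 FPKM in ID8 and 7.07, 3.35 and 3.87 in KMF. Replicate 1 was the highest library in each line, and every ID8 library still lay above every KMF library (-1.99 ± 0.34, adjusted p = 0.00255). Rnf219 (Obi1, a ligase of the replication origin complex) fell from 1.39, 1.70 and 1.48 FPKM to 0.417, 0.125 and 0.558 (-1.99 ± 0.44, adjusted p = 0.00843). Rnf128 (GRAIL), the most abundant of the RING genes that fell by over 2-fold, went from 83.2, 91.1 and 94.6 to 37.8, 44.5 and 46.5 FPKM (-1.02 ± 0.09, adjusted p = 0.000137). Rnf144a was not fitted, with 7, 6 and 8 counts in ID8 and 0 in each KMF library, which is at least 2.23-fold lower in KMF against a floor of 3 counts per library.

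Of the 5 cullins, Cul9 and Cul7 changed by over 2-fold. Cul9, a cytoplasmic cullin that binds p53, had 1.63, 1.15 and 1.803 FPKM in ID8 and 0.301, 0.113 and 0.249 in KMF, a log2 fold change of -2.74 ± 0.34 (adjusted p = 0.00056). Cul7, its closest relative, was more abundant, with 23.96, 20.9 and 20.6 FPKM in ID8 and 11.5, 10.5 and 9.57 in KMF (-1.01 ± 0.10, adjusted p = 0.000189). The general scaffolds moved less. Cul1, the scaffold of SCF, fell from 56.2, 56.04 and 55.3 to 44.4, 42.7 and 44.7 FPKM (-0.31 ± 0.06, adjusted p = 0.00599), and in each line the libraries were close together. Cul4b, the scaffold of the Dcaf adaptors, fell from 30.8, 30.4 and 31.2 to 22.8, 22.1 and 24.6 FPKM (-0.37 ± 0.07, adjusted p = 0.00338). For Cul2, the scaffold of the VHL ligase, 12.6, 11.4 and 12.04 FPKM in ID8 and 13.2, 13.7 and 13.5 in KMF gave 0.21 ± 0.07 with an adjusted p of 0.0595, which did not pass.

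F-box proteins bring substrates to Cul1, and 8 of 19 were called higher and 11 lower. Fbxo5 (Emi1) inhibits APC/C until mitosis. It rose from 5.75, 5.83 and 3.96 FPKM in ID8 to 15.4, 13.9 and 18.6 in KMF, a log2 fold change of 1.66 ± 0.19 (adjusted p = 0.000345), with ID8 replicate 3 again the lowest library. Fbxl2, a membrane-anchored F-box protein, was low in ID8, at 0.411, 0.155 and 0.484 FPKM, and higher in KMF, at 2.06, 2.34 and 1.62 (2.54 ± 0.38, adjusted p = 0.00132). Fbxo48 and Fbxl16 had smaller rises at low level. Fbxo48 went from 0.449, 0.528 and 0.35 to 0.961, 1.35 and 1.81 FPKM (1.67 ± 0.33, adjusted p = 0.00491), and Fbxl16 from 1.28, 1.63 and 1.04 to 2.84, 3.57 and 2.90 (1.27 ± 0.21, adjusted p = 0.00234). Fbxw7, the adaptor that marks cyclin E and Myc for destruction, was higher at 0.81 ± 0.10 (adjusted p = 0.000546).

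Fbxo17 was read in ID8 only. It had 106, 54 and 104 counts in ID8 replicates 1 to 3, or 1.84, 1.14 and 2.07 FPKM, and 0 counts in each KMF library. Against a floor of 3 counts per library, Fbxo17 was at least 27.6-fold lower in KMF (edgeR adjusted p = 0.000329). Fbxo36 fell from 12.8, 13.4 and 18.3 FPKM to 3.37, 4.62 and 3.88 (-1.86 ± 0.19, adjusted p = 0.000198). Fbxo32, the atrogin of muscle wasting, fell from 3.60, 3.49 and 2.92 to 2.05, 1.00 and 1.40 FPKM (-1.13 ± 0.25, adjusted p = 0.00813). The smallest called difference of any member was in Fbxo45, a partner of the ligase Mycbp2, at 9.37, 9.88 and 10.2 FPKM in ID8 and 10.99, 11.3 and 11.3 in KMF (0.23 ± 0.07, adjusted p = 0.0443), a call lost in 12 of 14 alternatives.

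Kelch-like proteins are adaptors of Cul3. Of 16 members, 14 were called lower, 1 higher (Klhl20, 0.34 ± 0.11, a call lost in 10 of 14 alternatives) and 1 not called (Klhl30). Klhl25 went from 17.2, 16.3 and 17.9 FPKM to 6.80, 6.85 and 6.63 with little spread (-1.30 ± 0.08, adjusted p = 2.65e-05). Klhl11 went from 15.97, 13.3 and 17.99 to 4.98, 6.47 and 6.59 FPKM (-1.35 ± 0.15, adjusted p = 0.000342). Klhl12, which ubiquitinates the COPII coat and Dishevelled, went from 11.3, 10.4 and 14.1 to 5.87, 5.70 and 6.86 FPKM (-0.91 ± 0.13, adjusted p = 0.000938). Klhl13 and Klhl9 act as a pair on Aurora B in mitosis, and both were lower. Klhl13 had 2.48, 1.98 and 3.20 FPKM in ID8 and 1.30, 1.11 and 0.494 in KMF, lowest in KMF replicate 3 (-1.37 ± 0.36, adjusted p = 0.0194, and 0.0517 without ID8 replicate 1 or 0.0536 without ID8 replicate 3). Klhl9 was at 26.8 ± 3.36 FPKM (mean ± SD, n = 3) in ID8 and 19.2 ± 0.829 in KMF (-0.44 ± 0.09, adjusted p = 0.0076). Klhl23 had 53, 46 and 31 counts in ID8 and 0, 2 and 0 in KMF, a pooled ratio of 65.5 (95% exact interval 17.8 to 547, counting error only; adjusted p = 0.000623). The remaining 8 lower members of the class had log2 fold changes from -3.19 (Klhl10) to -0.34 (Klhl2).

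Kctd proteins, which share the BTB fold and in part also serve Cul3, had 5 called higher and 3 lower of 9. Kctd15, known as a repressor of AP-2 in the neural crest, had the largest rise in transcript after Rnf183. Counts were 31, 41 and 12 in ID8 and 1272, 1111 and 1209 in KMF, which is 0.424, 0.685 and 0.189 FPKM in ID8 and 21.7, 19.4 and 14.7 in KMF. The lowest ID8 library was replicate 3 and the lowest KMF library replicate 3, and the gap between the lines was far wider than either spread (5.47 ± 0.37, adjusted p = 3.74e-05). Kctd10, a Cul3 adaptor for RhoB, rose from 29.6, 34.5 and 28.4 to 63.03, 65.9 and 62.9 FPKM (1.09 ± 0.10, adjusted p = 0.000106). Kctd9 rose from 10.6, 10.5 and 10.8 to 19.2, 22.3 and 22.7 FPKM (1.05 ± 0.09, adjusted p = 7.67e-05). Kctd2 fell from 46.99, 43.3 and 53.96 to 24.7, 24.1 and 21.9 FPKM (-0.99 ± 0.10, adjusted p = 0.000178).

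The Dcaf adaptors of Cul4 had 1 of 4 higher. Dcaf12, which reads glutamate at protein C-termini, had 19.8, 20.4 and 25.2 FPKM in ID8 and a narrow 51.01, 51.5 and 50.2 in KMF (1.27 ± 0.10, adjusted p = 6.54e-05). Dcaf5 (-0.54 ± 0.09, adjusted p = 0.00251), Dcaf4 (-0.50 ± 0.14, adjusted p = 0.022) and Dcaf11 (-0.34 ± 0.11, adjusted p = 0.0461) were lower by less than 2-fold, and the calls of Dcaf4 and Dcaf11 were lost in 5 and 7 of 14 alternatives. Of the Asb adaptors, which act with Cul5, Asb1 was at 4.58, 4.15 and 5.09 FPKM in ID8 and 5.27, 6.27 and 5.85 in KMF (0.37 ± 0.11, adjusted p = 0.0305, lost in 9 of 14 alternatives), and the others were under 1 FPKM in every library. Asb4 was not fitted, with 9, 12 and 5 counts in ID8 and 1, 1 and 2 in KMF (pooled ratio 6.55, 95% exact interval 2.27 to 25.8, counting error only).

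**Figure D3:**
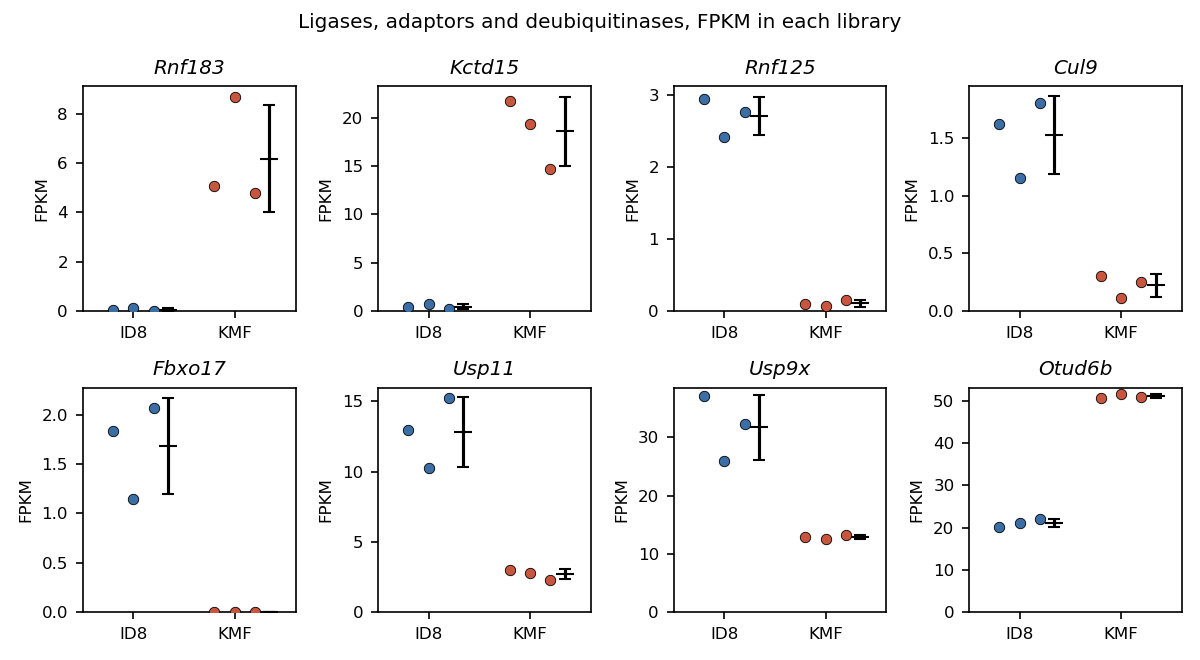
FPKM (vertical axis, from 0) in each ID8 (blue) and KMF (red) library for 5 ligases or adaptors and 3 deubiquitinases, with replicates 1 to 3 from left to right and the mean ± SD (n = 3) in black. Rnf183 and Kctd15 are near 0 in ID8, Rnf125, Cul9 and Fbxo17 near or at 0 in KMF, and the KMF libraries of Otud6b lie close together.

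Of the deubiquitinases of the Usp type, 10 of 25 were called higher (6 under upper quartile scaling and 6 with limma) and 12 lower. Among the higher genes, Usp6nl belongs by name only, since it is a regulator of Rab GTPases (0.85 ± 0.09). Usp11, which stabilises proteins of homologous recombination, had the largest fall of those above 1 FPKM. It had 12.99, 10.3 and 15.3 FPKM in ID8 and 3.01, 2.79 and 2.32 in KMF, a log2 fold change of -2.21 ± 0.17 (adjusted p = 6.19e-05). Usp9x, an abundant enzyme with many substrates, fell from 37.1, 25.96 and 32.3 to 13.00, 12.7 and 13.2 FPKM (-1.25 ± 0.12, adjusted p = 0.000159). Usp27x, a partner of transcription complexes, fell from 3.44, 3.32 and 4.003 to 1.83, 1.48 and 1.32 FPKM (-1.18 ± 0.17, adjusted p = 0.00107), and Usp32, a regulator of Rab7, from 19.2, 18.1 and 19.5 to 7.75, 8.83 and 8.22 (-1.15 ± 0.07, adjusted p = 3.3e-05). Usp11, Usp9x and Usp27x all lie on the X chromosome. Usp43 was also lower (-2.30 ± 0.30), at under 1 FPKM in each line.

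Usp45, which acts on the nuclease subunit ERCC1 in repair of bulky DNA lesions, rose from 4.18, 4.56 and 4.29 FPKM in ID8 to 11.8, 14.3 and 15.4 in KMF (1.71 ± 0.11, adjusted p = 3.18e-05). Usp25, an enzyme of inflammatory and tankyrase signaling, rose from 13.7, 14.3 and 14.7 to 22.8, 36.05 and 35.5 FPKM, and its lowest KMF library was replicate 1 (1.18 ± 0.16, adjusted p = 0.000951). Usp7, which deubiquitinates p53 and its ligase, was higher at 0.45 ± 0.08 (adjusted p = 0.00304). Usp17lc was higher at 2.18 ± 0.44 but under 1 FPKM in each line, and belongs to a family of near-identical copies between which reads may be divided. Of the Otu and Uch types, Otud6b went from 20.2, 21.04 and 21.97 to 50.7, 51.5 and 50.9 FPKM with close libraries in each line (1.32 ± 0.07, adjusted p = 1.27e-05). Otud3 rose from 5.63, 7.13 and 7.20 to 10.02, 13.2 and 12.8 FPKM (0.89 ± 0.16, adjusted p = 0.00323). Otub1, which also holds back the E2 Ube2n without cutting, fell from 93.4, 90.7 and 95.8 to 63.97, 63.7 and 63.5 FPKM (-0.51 ± 0.06, adjusted p = 0.000471), and Uchl3, which trims small adducts, from 39.6, 38.9 and 35.9 to 28.2, 26.3 and 28.1 (-0.43 ± 0.09, adjusted p = 0.0071).

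**Figure D4:**
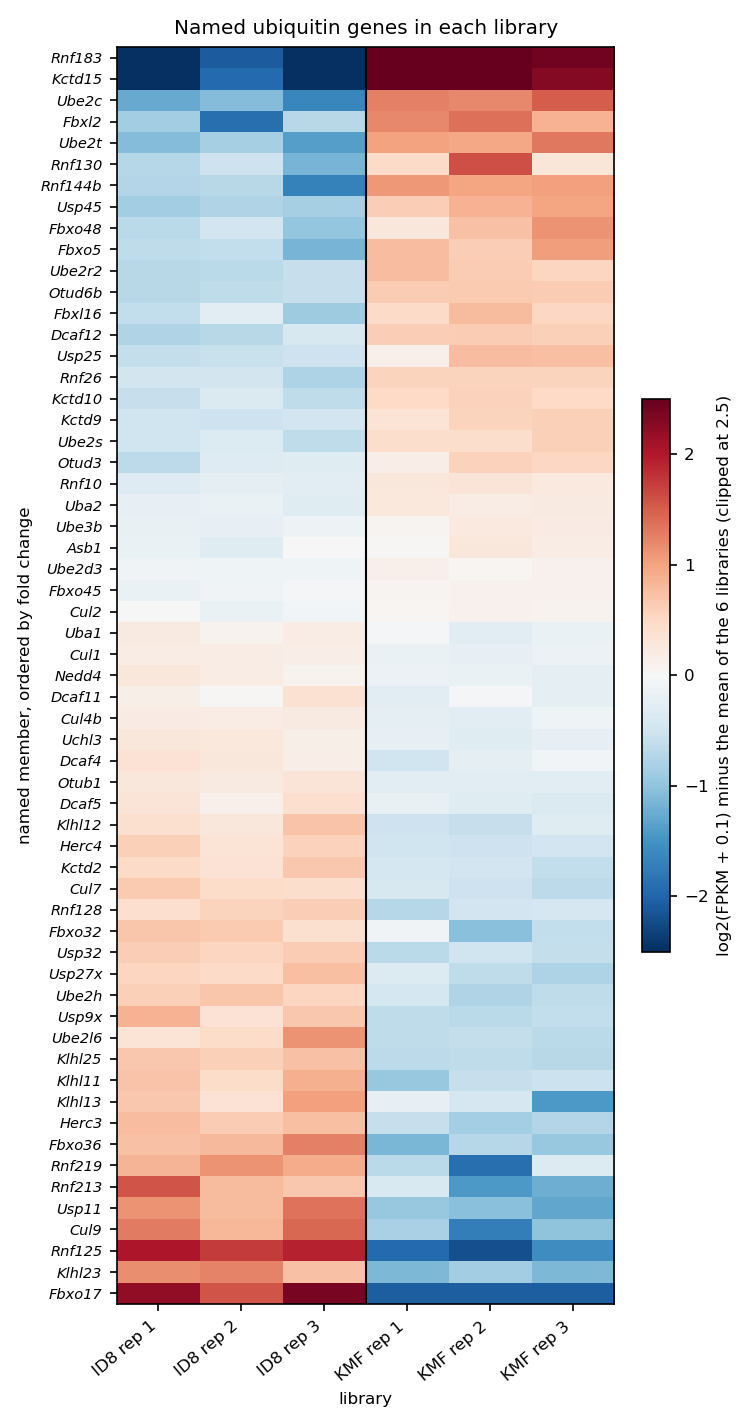
Log2(FPKM + 0.1) of 59 named and fitted members (rows, ordered by fold change) in the 6 libraries (columns), minus the mean of each row and clipped at 2.5 (colour scale). The line split runs through the whole map, weakly for genes near its middle such as Cul2 and Fbxo45, and departures within a line are seen for Rnf130 in KMF replicate 2 and Rnf213 in ID8 replicate 1.

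To relate the members to the processes that the study examined, they were also counted by process. The lists of 14 cell cycle, 15 DNA damage, 11 p53, 6 Myc and 12 beta-catenin and Wnt members share genes and were chosen with results known. These numbers are the genes in the table, out of 24, 35, 24, 13 and 23 looked up. Over all fitted genes, 45.4% were called higher and 47.5% lower, and splits near these shares say nothing particular of a list. Cell cycle members had 7 called higher and 7 lower, and the 5 rises over 2-fold were Ube2c, Ube2t, Rnf144b, Fbxo5 and Ube2s. The lower ones were Klhl13 and 6 genes with changes of less than 2-fold, namely Usp22, Klhl9, Klhl22, Fbxo31, Cul4b and Cul1. DNA damage members had 8 higher (5 without ID8 replicate 1 and 5 under upper quartile scaling), led by Ube2t and Usp45, and 6 lower, led by Usp11. Rnf168, the ligase that marks chromatin at double-strand breaks, was among the higher ones (0.55 ± 0.08, adjusted p = 0.000862). Regulators of p53 had 5 higher (3 to 4 with 1 library left out, 3 without ID8 replicate 2), led by Rnf144b, and 6 lower, led by Rnf125, Cul9 and Rnf128. Myc regulators had 3 higher and 3 lower, with Fbxo32 the one lower by over 2-fold. Beta-catenin and Wnt members had 7 higher, Rnf130 and Usp25 by over 2-fold, and 5 lower, Usp9x by over 2-fold. The 5 became 3 without ID8 replicate 1, ID8 replicate 2, KMF replicate 2 or KMF replicate 3.

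Partner genes outside the families were counted in the same fit and are read beside the same 45.4% and 47.5% of all fitted genes. Of 27 listed core genes of ubiquitin, SCF, APC/C and cullin ligases (1 of them, Rnf7, is also a member), 17 were called higher and 8 lower (4 without KMF replicate 3, 5 without ID8 replicate 1 or KMF replicate 2). The APC/C activator Cdc20 went from 20.98, 21.7 and 12.5 FPKM in ID8 to 73.9, 66.8 and 86.1 in KMF (2.07 ± 0.21, adjusted p = 0.000216). The second activator, Fzr1, was higher by less (0.81 ± 0.09, adjusted p = 0.000295), and the SCF parts Cks1b (1.39 ± 0.13) and Skp2 (0.68 ± 0.15), the cyclin F-box protein Ccnf (1.84 ± 0.22) and the Cul4 adaptor Dtl (1.70 ± 0.16) were also called higher. Of the listed APC/C subunits, Anapc15 (-0.79), Anapc10 (-0.51), Cdc26 (-0.40) and Anapc4 (-0.24) were called lower. Anapc5 (0.62), Anapc1 (0.48) and Cdc23 (0.26) were called higher. The largest fall of the list was in Cand2 (-1.69 ± 0.26, adjusted p = 0.00147). Btrc, the F-box protein that reads phosphorylated beta-catenin, was lower (-1.29 ± 0.08, adjusted p = 2.92e-05), and its paralogue Fbxw11 was lower at -0.23 on the log2 scale, a call lost in 5 of 14 alternatives. Of 48 proteasome genes looked up, subunits and others, 18 were in the table. Of these 18, 8 were called higher (5 without ID8 replicate 1 and 5 under upper quartile scaling) and 8 lower (5 without KMF replicate 2). Of the immunosubunits, Psmb9 (-1.58 ± 0.23) and Psmb10 (-0.46 ± 0.08) were called lower, and Psmb8 (0.93 ± 0.32, adjusted p = 0.0557) did not pass. The SUMO list (Uba2 included) had 5 higher and 3 lower of 8, with both subunits of the SUMO E1 higher, Sae1 at 0.88 ± 0.08 and Uba2 as above. TRIM and MARCH ligases had 8 higher and 12 lower of 21, with the largest rise in Trim46 (3.35 ± 0.31). The COP9 signalosome had 1 higher and 1 lower of 2. The lists looked up held 55 core, 16 SUMO, 66 TRIM and MARCH and 10 COP9 genes, and each count is out of those in the table.

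Proliferation markers are given beside Ube2c, Ube2t, Ube2s and Fbxo5. All 16 were called higher in KMF, and their summed level was 254 to 353 FPKM in ID8 and 887 to 1133 in KMF. In 16 of 16 of them ID8 replicate 3 was the lowest ID8 library, as in these 4 members, while the 14 cell cycle members were evenly split. The part of proliferation in the 4 members' differences was not tested. Without ID8 replicate 3, 7 cell cycle members were called higher. All 14 were called in the main fit and none was called in the opposite direction, so these were the same 7 genes. Of 16 interferon response markers, given beside Ube2l6 and Rnf213, 9 were in the table. Of these 9, 3 were higher and 6 lower (3 lower without ID8 replicate 2, without KMF replicate 3 or at 10 counts in every library). Their summed level was 64.6 to 80.7 FPKM in ID8 and 76.7 to 88.5 in KMF, and their part was not tested. As a check of the lines, 6 of 10 epithelial markers were listed. Cdh1, Krt7, Epcam and Wt1 were lower in KMF and Msln higher. Muc16 was not fitted, at 0.301 to 1.15 FPKM in ID8 and 0.0291 to 0.334 in KMF. None of 11 leukocyte markers was listed, and of 7 endothelial markers only Kdr was, at 0.0115 to 0.0699 FPKM in ID8 and 0 in KMF. The table holds only genes called different, so an unlisted marker may be present in both lines alike or in neither.

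Directions of the members were uneven along the genome (GRCm38; the plot by chromosome). On chromosome 11, 19 of 21 called members were lower, and 27.2% of all called genes there were higher. Chromosome 8 had 8 of 9 lower (33.8% of all called genes higher) and the X chromosome 7 of 8 (36.5%). On chromosome 3, 6 of 7 were higher (74.9% of all called genes). Away from chromosome 11, 60 called members were higher (50.4%) and 59 lower, and 51.0% of all called genes there were higher. Among these members the Kelch-like proteins had 12 lower and 1 higher. With chromosomes 8 and X also left out, 58 called members were higher (56.9%) and 44 lower, and 52.9% of all called genes were higher. The Kelch-like proteins then had 8 lower and 1 higher. On chromosome 4 the direction changed along the sequence. The 5 members up to Dcaf12, namely Otud6b, Usp45, Fbxl4, Ube2r2 and Dcaf12, were all higher, with a median log2 fold change of 1.32, and 71.8% of the 71 called genes of that stretch were higher, with a median of 1.03. Beyond it 4 members were higher and 8 lower, and 44.4% of called genes were higher. DNA copy number was not analysed here, and its part was not tested.

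**Figure D5:**
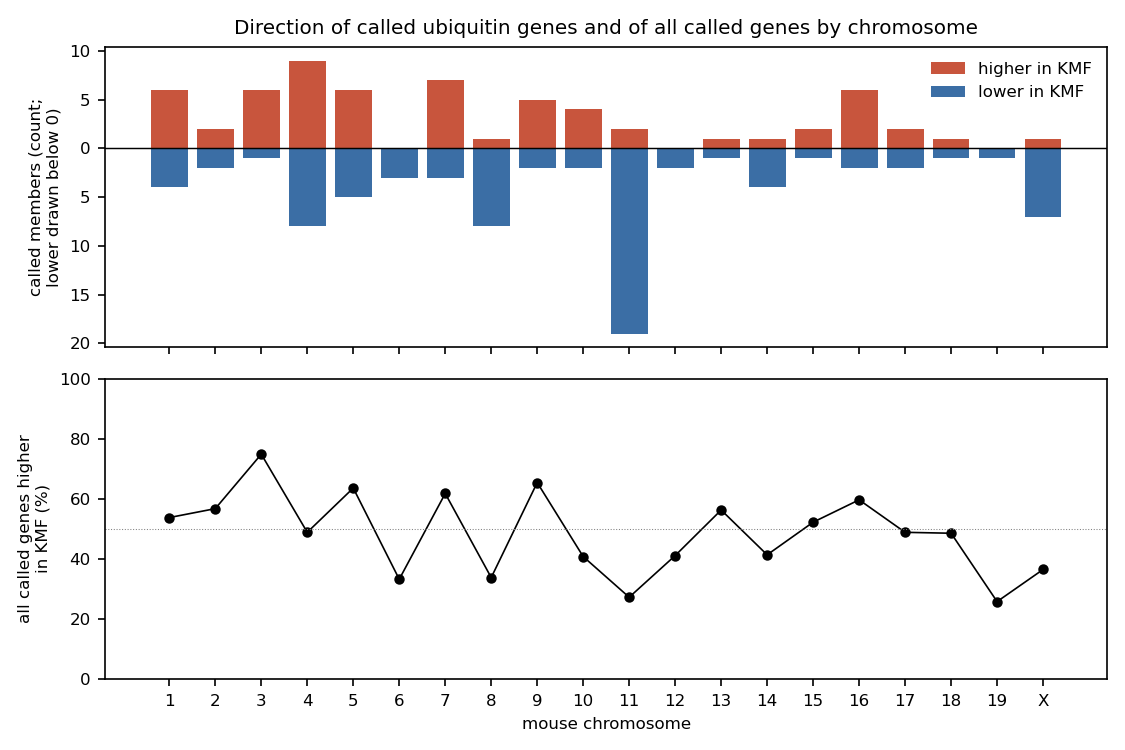
Top: called members per mouse chromosome (horizontal axis), counted above 0 if higher in KMF (red) and below 0 if lower (blue). Bottom: share of all called genes that were higher in KMF (%), with a dotted line at 50. Chromosome 11 has 19 lower members and 27.2% of its called genes higher.

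Levels within lines were reproducible for most members. Over the 123 members above 5 CPM in both lines, the median coefficient of variation was 6.58% in ID8 and 6.25% in KMF. A mean above 1 FPKM was found in both lines for 125 of 149 members, in ID8 only for 5 and in KMF only for 5, and 14 were at or under 1 FPKM in both. The share above 1 FPKM in both lines was 83.9% of members and 73.3% of all listed genes. ID8 replicate 3, at the highest passage, was the lowest ID8 library for 33.6% of members and the highest for 45.0%, against 38.1% and 37.6% of all listed genes. It was the lowest ID8 library in 12 of the 20 members called higher by at least 2-fold and in 9 of the 28 called lower. The same counts over all genes called by 2-fold were not made, so these are not read as a trait of the members. All 16 proliferation markers, which are not members, were also lowest in it. Of the fitted members, 7 were not called, namely Herc2, Cul2, Klhl30, Kctd7, Usp19, Usp54 and Usp35, with adjusted p-values from 0.0501 (Kctd7) to 0.0727 (Klhl30).

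Whether counting used strand was not given in the sources used here. In the annotation (GENCODE M21), 38 members share exon sequence with a gene on the opposite strand and 8 with one on the same strand, so that part of their reads could belong to that neighbor. Among those described, Ube2c overlaps Tnnc2, Ube2s overlaps Rpl28, Fbxl2 overlaps Ubp1, Kctd10 overlaps Myo1h, Usp45 overlaps Tstd3, and Ube2d3, Herc4, Rnf26, Rnf213, Cul1, Fbxo32, Klhl13, Kctd15 and Dcaf11 also have such a neighbor.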

How the data were processed

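Poly-A RNA of 6 libraries was sequenced as paired-end reads. The study's methods name TopHat2 for mapping, and the submitters' processing notes name CASAVA 1.8, STAR 2.5, DESeq2 and the build mm10. The counting tool, its use of strand and the annotation release were not given in the sources used here. The deposited table holds raw counts, which the authors did not normalize, and FPKM, which the authors scaled to gene length and to fragments on genes. The deposited signal columns are the authors' mean counts of each line after size factors. The deposited log2 fold change and the deposited p-value come from the authors' own comparison and were not used as results. They served to infer that 17359 genes had been tested, of which the table lists the 7320 with an adjusted p-value under 0.05. A total of 14 symbols that had become dates were restored from gene identifiers.

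Library totals were recovered from counts, FPKM and length, and 3 counts corresponded to 0.0903 to 0.130 CPM. The two-sided quasi-likelihood test of edgeR 4.0.16 (R 4.3.3) was run on the counts after filterByExpr and TMM scaling, with Benjamini-Hochberg adjustment over 17359 genes, taking unlisted genes to rank below the listed ones. Folds against the floor of 3 counts use the mean of each library's floor after TMM scaling. Errors after ± of a fold change are SE, and values after ± of a level are SD over 3 libraries. A step with simulated counts of known change was run to test the fit, and its outcome is not reported here. Alternatives used limma 3.58.1, DESeq2 1.42.0, other scalings and filters, a replicate block and leaving out each library. Intervals on pooled counts are exact and cover counting error only. Every pair of libraries from the same line differed by more than counting noise (chi-square per degree of freedom at least 19.3).

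Named members are all E1 enzymes and cullins, the 4 largest called changes of every other class (6 in the E2, RING, F-box and Usp classes) among those above 1 FPKM in a line and without overlap, the members of the cell cycle, p53, Myc and Wnt lists changed at least 2-fold, those with a line at or under 3 counts, the 5 highest in FPKM and the smallest called change. A named item that is not reported here was left out. Others named with a value (such as Klhl9, Fbxw7, Usp7, Rnf168, Usp43 and Usp17lc) were added after their values were seen. The members, the lists and this rule were chosen with earlier results of these data known. Positions were checked against GENCODE M21, where 7286 of 7295 matched identifiers overlapped their listed position. Python 3.11.15, numpy 2.4.6, pandas 2.3.3 and matplotlib 3.10.9 were used.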

Additional observations from a re-analysis of the deposited data

How the results depend on the processing

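Of 833 fold changes of named members compared over the 14 alternatives, none reversed, and no member was called in opposite directions. Median fold changes changed sign in at least 1 alternative for 5 of 26 groups, ranging from -0.06 to 0.27 for RING ligases (0.25 as reported), -1.81 to 0.33 for Asb proteins (-1.45), -0.10 to 0.05 for cell cycle members (0.01), -0.15 to 0.01 for the COP9 signalosome (-0.03) and -0.81 to 0.06 for interferon markers (-0.69). Of 812 counts compared, 61 moved by over 1.5 times. Upper quartile scaling called 124 members, 34.7% of them higher (44.3% as reported), and gave 7 higher E2 enzymes, 1 HECT or U-box ligase, 0 Kelch-like, 0 Asb and 6 Usp genes, 5 DNA damage members and 5 proteasome genes. With limma on log2(FPKM + 1), 14 members were lower by 2-fold, with 1 HECT or U-box ligase, 0 Kelch-like, 0 Asb and 6 Usp genes higher and 0 Asb genes lower. Without a filter, 1 cullin was higher and 1 endothelial marker lower, the latter also (1) with DESeq2. Adjusted over the fitted genes alone, 1 cullin and 2 Kelch-like genes were higher. At 10 counts in every library, 0 Kelch-like and 0 Asb genes were higher and 0 Asb genes and 3 interferon markers lower. With library totals alone, 0 Kelch-like and 0 Asb genes were higher. The replicate block called 124 members (122 of those reported), with 0 Kelch-like and 0 Asb genes higher and 1 Dcaf and 1 Asb gene lower. Same-numbered libraries did not deviate together (correlations 0.0763, -0.159 and 0.0718), so the numbers were not taken to pair them.

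With 1 library left out, called members ranged from 105 (without ID8 replicate 1) to 129. Counts of lower genes ranged from 0 to 1 for E1 enzymes, 1 to 2 for Dcaf (1 without ID8 replicate 1, KMF replicate 1 or 2), 1 to 2 for Asb, 3 to 5 for beta-catenin and Wnt members (3 without ID8 replicate 1 or 2 or KMF replicate 2 or 3), 4 to 7 for core genes (4 without KMF replicate 3, 5 without ID8 replicate 1 or KMF replicate 2), 5 to 8 for the proteasome (5 without KMF replicate 2) and 3 to 6 for interferon markers (3 without ID8 replicate 2 or KMF replicate 3). Counts of higher genes ranged from 1 to 2 for HECT and U-box ligases, 11 to 16 for RING ligases, 0 to 1 for Kelch-like and 0 to 1 for Asb genes, 5 to 7 for DNA damage members and 5 to 9 for the proteasome (each 5 without ID8 replicate 1) and 3 to 4 for p53 members (3 without ID8 replicate 2). Of the 140 called members, 95 kept their call in every alternative that gave a value. The cause of these shifts was not tested. Members under 1 FPKM rest on few counts, and the table says nothing of unlisted genes.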
